A study of Mus musculus with 16 samples.

Results

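The change of the transcriptome with homeostatic maturation was measured in conventional type 1 dendritic cells (cDC1s) of Xbp1fl mice, as 4 libraries of mature against 4 libraries of immature cells. They are 8 of the 16 libraries of the study and were chosen by their genotype and by their maturity label, with mature and immature libraries matched by replicate number. The cells were sorted by flow cytometry from the spleen of C57BL6 mice at steady state, with 5000 to 50000 cells per sample. Xbp1 codes for a factor that responds to misfolded protein in the endoplasmic reticulum. In Xbp1fl mice it is flanked by recombination sites but not deleted, and both stages carry the same allele. The condition of both groups is labelled WT. The other 8 libraries are the same stages from mice floxed for Xbp1 and Ire1 and enter only the comparison between genotypes. The labels give neither the gates of the sort nor whether replicates were separate animals, so p-values reflect only how far these libraries differ, which may be technical.

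cDC1s take up material from dying cells and present it to CD8 T cells. When they mature they switch on the chemokine receptor CCR7 and leave for the T cell zones of lymphoid organs. In the absence of infection this homeostatic maturation is linked to tolerance, while microbial signals lead to immunogenic maturation. The title of the study ties the homeostatic form to the LXR receptors, nuclear receptors that sense oxysterols and drive cholesterol efflux.

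Levels are given as CPM, counts per 1000000 counts, after scaling between libraries by the trimmed mean of M values (TMM). The mature libraries held 13948232 to 16572576 counts and the immature ones 15926675 to 17000763, so that 3 counts corresponded to 0.196 to 0.23 CPM and 0.16 to 0.173 CPM. Genes with at least 1 count numbered 14231 to 14570 per mature library and 13881 to 14295 per immature library. Stage separated along the leading principal component, with 80.1% of the variance. TMM factors ran from 0.890 to 0.936 (mature) and from 1.07 to 1.10 (immature), so the scaling and the stage cannot be told apart. Replicate 4 of both stages stood apart from the other libraries by sex-linked genes. Xist, the RNA of the inactive X chromosome, reached 67.3 CPM (mature) and 61.0 CPM (immature) in replicate 4 and was at most at 0.227 CPM in replicates 1 to 3. Ddx3y, a Y-linked helicase gene, was at 58.8 to 91.6 CPM in replicates 1 to 3 and at most at 0.107 CPM in replicate 4. Of the defining markers of the labelled cell type, Xcr1, Clec9a, Cd8a, Irf8 and Batf3 were present in all 8 libraries, with Xcr1 at 553 to 816 CPM.

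Of 11567 genes tested, 6915 (59.8%) were called at an adjusted p under 0.05 by edgeR's quasi-likelihood test. Of these, 3436 (29.7% of the genes tested) were higher and 3479 (30.1%) lower in mature cells. The split of the calls rests on the scaling, as 49.7% of them were higher with TMM, 51.3% with DESeq2's size factors, 37.1% with upper quartile factors and 29.8% with library sizes only. The median log2 change over all genes moved from -0.02 with TMM to -0.16 and -0.26 with the latter pair. In size the rises outran the falls. Over 2-fold, 1366 genes (11.8%) were higher and 251 (2.17%) lower. These counts were 1204 and 475 with upper quartile factors and 1090 and 736 with library sizes only. Over 4-fold the counts were 593 higher and 5 lower, and over 16-fold 181 higher and 0 lower. Of those 181 genes, 123 had an immature mean under 1 CPM, where the fold rests on few immature counts. The mature and immature libraries did not overlap for 6336 genes (54.8%), with 3168 higher (27.4%) and 3168 lower (27.4%) in mature cells. Matched by replicate number, 3338 of the 3436 higher genes (97.1%) were higher in all 4 pairs and 3371 of the 3479 lower genes (96.9%) were lower in all 4 pairs. These genes were called from the same libraries, so this agreement follows largely from the call and is no independent evidence. A change over 2-fold in each of the 4 pairs was seen for 964 genes that rose and 39 that fell. Without replicate 4 of both stages, 6254 genes were called, 3198 of them higher and 3056 lower.

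Rises over 2-fold were found at all immature levels. Of 3043 genes with an immature mean of 1 to 10 CPM, 443 rose and 160 fell by over 2-fold. The counts were 427 and 75 of 5960 genes at 10 to 100 CPM, 106 and 14 of 1688 at 100 to 1000 CPM, and 7 and 0 of 75 over 1000 CPM. Under 1 CPM they were 383 and 2 of 801 genes. A gene at that level can pass the filter on low counts through its mature level, which tilts this group toward rises. Together the genes that rose by over 2-fold took 18.0% to 21.1% of the counts in mature libraries and 5.82% to 6.22% in immature libraries. Those that fell by over 2-fold took 0.25% to 0.294% and 0.706% to 0.752%.

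**Figure D1:**
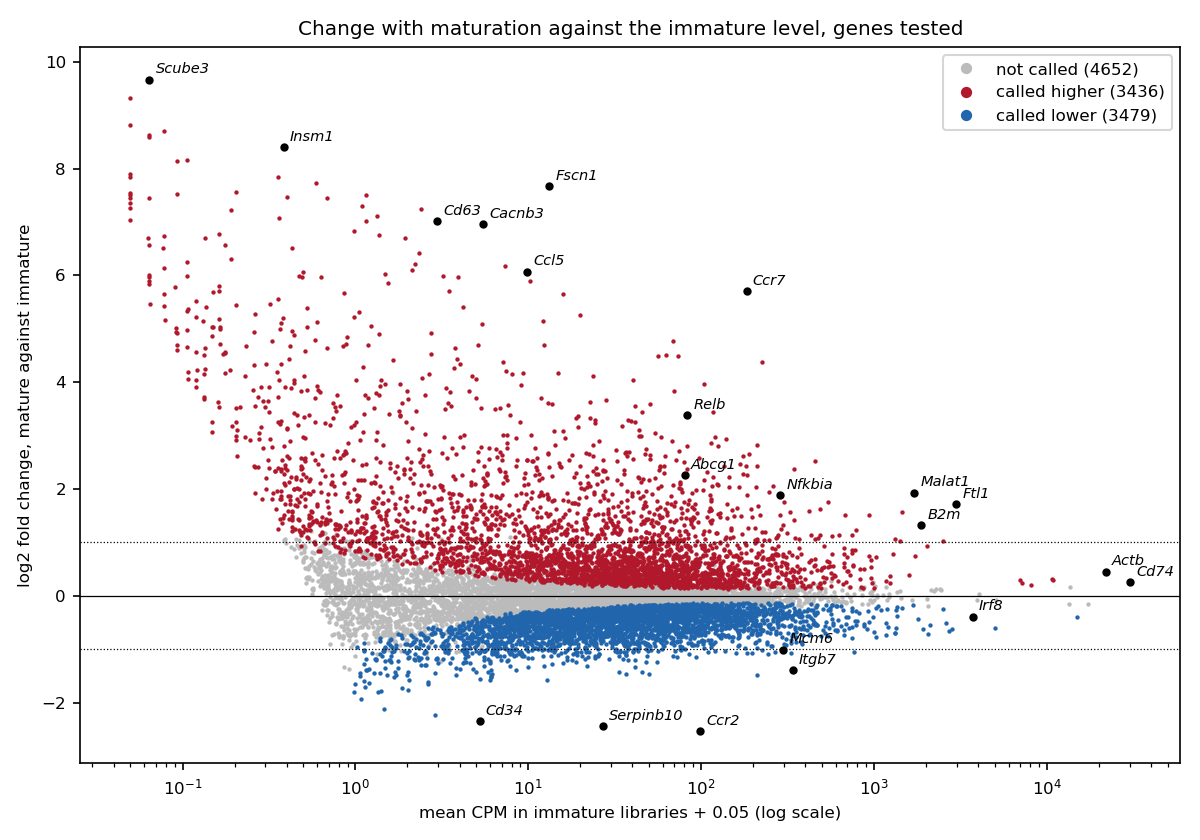
Each point is 1 of the 11567 genes tested, with the mean CPM in the 4 immature libraries plus 0.05 on a log axis (x) and the log2 fold change of mature against immature cells (y). Genes called higher are red (3436), genes called lower blue (3479), dotted lines mark 2-fold changes, and black points carry gene names. Changes reach 9.67 upward (Scube3) and -2.53 downward (Ccr2).

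The largest rises among genes with at least 1 CPM in immature cells were those of Fscn1, Tnfrsf4, Ankrd33b, Asprv1, Adcy6, Nudt17, Cd63, Cacnb3, Jag1 and Socs2. Fscn1 encodes fascin, the actin-bundling protein of dendritic cell protrusions (chromosome 5, 142960343 to 142973185, GRCm38). It was at 2431, 2289, 3088 and 2988 CPM in mature replicates 1 to 4 and at 8.49, 10.6, 24.1 and 9.46 CPM in immature replicates 1 to 4. The lowest mature library lay far above the highest immature one, and the log2 fold change was 7.68 ± 0.41 (SE; adjusted p = 4.29e-06). Tnfrsf4, which encodes the receptor OX40, was at 173, 183, 256 and 191 CPM in mature and 0.563, 0.751, 2.38 and 0.695 CPM in immature libraries (log2 fold change 7.51 ± 0.32). Cacnb3, a calcium channel subunit gene, was at 571, 600, 806 and 713 CPM in mature and 3.15, 1.85, 13.4 and 3.26 CPM in immature libraries (6.96 ± 0.57). For both genes replicate 3 was the highest library of either stage. Cd63, a tetraspanin gene of late endosomes, rose from 2.91 ± 1.82 to 377 ± 63.0 CPM (SD, n = 4). Jag1, a Notch ligand gene, rose from 1.32 ± 0.841 to 142 ± 29.0 CPM, and Socs2, a feedback inhibitor of cytokine signalling, from 1.90 ± 1.47 to 198 ± 34.1 CPM. The log2 fold changes of the 10 genes lay between 6.71 and 7.68. Stages without overlap were a condition for entering this ranking.

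**Figure D2:**
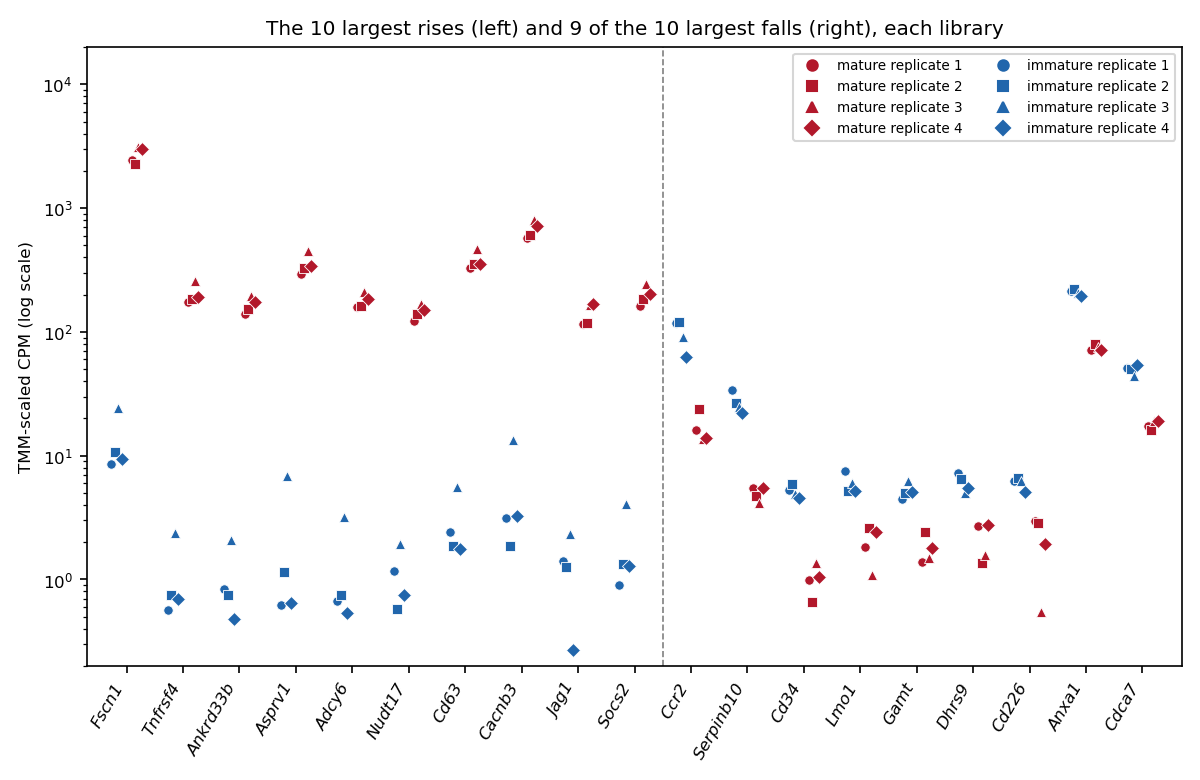
TMM-scaled CPM on a log axis (y) in each of the 8 libraries for the 10 genes with the largest rises among genes of at least 1 CPM in immature cells (left of the dashed line) and 9 of the 10 with the largest falls (right). Red symbols are mature and blue symbols immature libraries, and the symbol shape gives the replicate number. Genes entered this ranking only if they were called and their stages do not overlap. The triangle of immature replicate 3 is the highest blue symbol for all 10 rises.

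Immature replicate 3 was the highest of the immature libraries for 10 of these 10 genes, and for 66 of the 100 genes with the largest rises. Taken as a percentage of the mature mean, the median of the 10 genes was 0.461, 0.41, 1.56 and 0.348 in immature replicates 1 to 4. Mature replicate 3 was likewise the highest mature library for 9 of the 10 and for 75 of the 100. Neither count was made over all genes tested. In bulk RNA, a few mature cells in an immature sample and more RNA per immature cell cannot be told apart. Leaving this library out changed no direction, but the fold changes of Asprv1, Cacnb3, Adcy6, Tnfrsf4 and Socs2 then rose to 437, 242, 271, 296 and 169, from 152, 124, 139, 182 and 105.

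**Figure D3:**
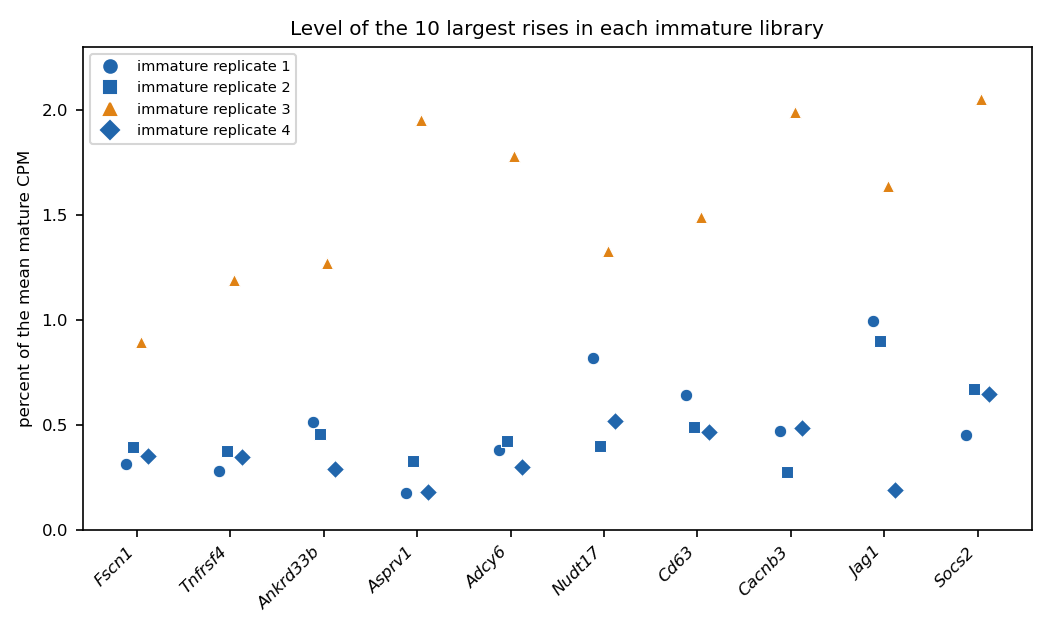
CPM in each of the 4 immature libraries as a percentage of the mean mature CPM (y, linear from 0), for the 10 genes with the largest rises (x). Replicate 3 is drawn as orange triangles and the other libraries in blue. Replicate 3 has the highest value for each gene, between 0.894 for Fscn1 and 2.05 for Socs2.

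Below 1 CPM in immature cells, the 5 largest rises were those of Scube3, Gal3st2, Plat, Foxh1 and Insm1. Insm1, a zinc finger transcription factor gene known from neuroendocrine cells (chromosome 2, 146221921 to 146225020), was at 93.0, 100, 148 and 126 CPM in mature libraries. In immature libraries it was at 0.338, 0.173, 0.51 and 0.321 CPM. Over all libraries this was 6744 against 24 counts, a ratio of 350 per count of depth (95% exact interval 235 to 546, counting error only). Scube3, a secreted glycoprotein gene, had 1018 mature counts and 1 immature count (ratio 1270, 227 to 50100). Plat, which encodes tissue plasminogen activator, had 498 counts against 1 (620, 111 to 24500). Foxh1, a transcription factor gene of nodal signalling, had 485 against 1 (603, 108 to 23900), and Gal3st2, a sulfotransferase gene, 853 against 2 (531, 146 to 4390). The fitted log2 changes of these 4 genes, 8.60 to 9.67, rest on the prior count and their SE is unreliable.

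Falls were smaller. Ccr2, the receptor that brings monocytes and dendritic cell precursors out of the bone marrow (chromosome 9, 124101950 to 124113557), was at 118, 121, 91.0 and 62.2 CPM in immature replicates 1 to 4. It was at 16.2, 24.0, 13.7 and 13.9 CPM in mature replicates 1 to 4 (log2 fold change -2.53 ± 0.28, adjusted p = 0.000148). Immature replicate 4 was the lowest of its group, and stages without overlap were a condition of this ranking too. Serpinb10, a serine protease inhibitor gene, fell from 26.9 ± 5.04 to 4.96 ± 0.649 CPM (log2 fold change -2.44 ± 0.15). Cd34, a surface glycoprotein of progenitor cells, fell from 5.18 ± 0.599 to 1.01 ± 0.293 CPM (-2.35 ± 0.24). The other falls over 4-fold were Stag3, a meiotic cohesin gene (-2.24 ± 0.43), and Ptgdr2, a prostaglandin D2 receptor gene (-2.13 ± 0.48). These last genes were named after their values were seen. The next largest by the rule included Lmo1, Gamt, Dhrs9, Cd226, Anxa1 and Cdca7, with log2 changes of -1.57 to -1.47. Anxa1, which encodes annexin A1 (chromosome 19, 20373428 to 20390944), was at 216, 222, 206 and 196 CPM in immature and 71.6, 79.6, 75.8 and 71.5 CPM in mature libraries. The ranges of Anxa1 were narrow in both stages (log2 fold change -1.49 ± 0.06, adjusted p = 1.13e-10).

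Measured in CPM gained, Ccr7 came first. It was at 8827, 7966, 11532 and 9898 CPM in mature and at 171, 122, 318 and 120 CPM in immature libraries (log2 fold change 5.71 ± 0.42, adjusted p = 3e-05). Actb (beta actin) followed, with a mature level of 30007 ± 1697 against 21911 ± 882 CPM, and then Ftl1, the ferritin light chain gene, with 9766 ± 904 against 2988 ± 181 CPM. Cd74, the invariant chain of MHC class II, had a log2 change of 0.25 that was not called with upper quartile factors (0.12, adjusted p = 0.187) or library sizes only (0.01, 0.867). Malat1, a nuclear long noncoding RNA, rose from 1706 ± 295 to 6479 ± 797 CPM. Among called genes without overlap, the largest losses in CPM were those of Rn45s (45S ribosomal RNA), Ppt1, Irf8, Fos and Plbd1, each by 1.31- to 1.58-fold. Ppt1, a lysosomal thioesterase gene, fell from 5026 ± 187 to 3291 ± 248 CPM. Irf8, the transcription factor on which cDC1 development depends, was at 3548, 3964, 3731 and 3643 CPM in immature and 2719, 2943, 2930 and 2784 CPM in mature libraries.

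Genes were then read by function, each list against the 29.7% of all tested genes that were higher and the 30.1% that were lower. The counts and medians describe the lists and are no test of them. Of 29 genes in a list of the maturation programme common to dendritic cells, 28 were higher and 0 lower, with a median log2 change of 3.60. The members were chosen because they are known to rise in maturing dendritic cells and earlier results of these data were known, so their direction is no independent evidence. By pair of replicates the median was 3.49, 3.70, 3.64 and 3.83. The exception was Cst7, a cystatin gene, at 1.30 ± 0.326 CPM in mature cells against 0.97 ± 0.346 CPM in immature cells. Eno2, Tmem123 and Serpinb9 had the smallest p-values. Tmem123, a surface receptor gene, was at 4074 to 5367 CPM in mature and 202 to 249 CPM in immature libraries, and Serpinb9, an inhibitor of granzyme B, at 1306 to 1724 and 197 to 228 CPM.

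**Figure D4:**
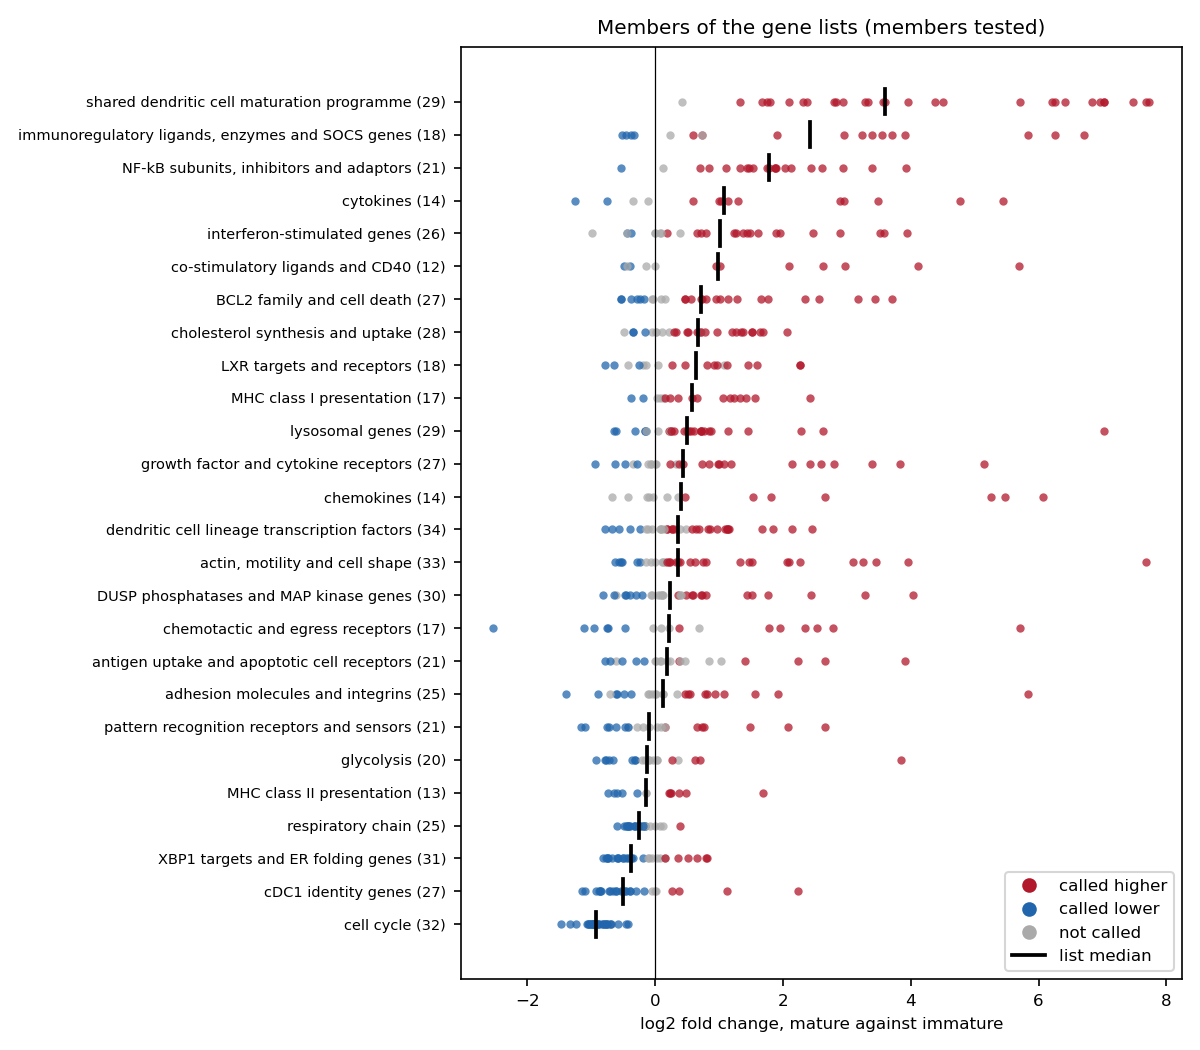
Log2 fold change of mature against immature cells (x) for each tested member of 26 gene lists (y, with the number of members tested). Red points were called higher, blue points lower and grey points not called, and black bars are list medians. Medians run from 3.60 for the maturation programme to -0.92 for the cell cycle.

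Among 12 co-stimulatory ligands and CD40, 7 were higher and 2 lower (median 0.99). Cd40, the receptor for T cell help, was at 288, 277, 330 and 350 CPM in mature and 46.2, 47.9, 58.7 and 48.1 CPM in immature libraries. Icosl, the ICOS ligand gene, was at 384, 421, 534 and 501 CPM in mature and 49.6, 64.5, 63.2 and 57.9 CPM in immature libraries. Neither gene had overlapping stages. The ligands of CD28 differed from one another: Cd80 rose by 0.95 ± 0.12 on the log2 scale (adjusted p = 1.55e-05), whereas Cd86 was at 357 ± 15 CPM in mature cells against 394 ± 22.0 CPM in immature cells and was not called (adjusted p = 0.058), but was with the replicate number as a block (log2 fold change -0.14, adjusted p = 0.0312) or without mature replicate 4 (-0.16, adjusted p = 0.049). Cd70, the CD27 ligand gene, had 314 mature and 7 immature counts (ratio 55.8, 95% exact interval 26.8 to 140). Cd48 fell by 0.48 on the log2 scale.

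Of 18 tested immunoregulatory ligands, enzymes and SOCS genes, 12 were higher and 4 lower (median 2.43). Cd274, which encodes PD-L1, was at 237, 178, 250 and 248 CPM in mature and 26.5, 20.8, 29.3 and 19.9 CPM in immature libraries (log2 fold change 3.24 ± 0.15). Pvr, the ligand of TIGIT and CD226, rose by 2.95 ± 0.09, and Aldh1a2, which makes retinoic acid, by 3.55 ± 0.16. The death receptor gene Fas rose by 3.71 ± 0.18. The 4 that fell were Havcr2 (TIM-3), Btla, Tgfb1 and Lgals9, by 0.52, 0.46, 0.38 and 0.33 on the log2 scale. Lgals9 was not called without mature replicate 2 or 3, immature replicate 1 or 4, or replicate 4 of both stages (adjusted p = 0.0874 to 0.113). Ido1, the tryptophan-degrading enzyme gene, was at 2.68 CPM in mature cells against 2.28 CPM in immature cells and was not called. Il10 and Ido2 had too few counts to be tested, with means of 0.731 and 0.476 CPM in mature cells.

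Of 21 tested NF-kB subunits, inhibitors and adaptors 19 were higher and 1 lower (median 1.78). NF-kB factors are held in the cytoplasm by inhibitors whose genes they also switch on. Relb, the subunit of the noncanonical pathway, was at 786, 781, 993 and 911 CPM in mature and 74.2, 76.9, 104 and 76.1 CPM in immature libraries (log2 fold change 3.39 ± 0.13). Its partner Nfkb2 rose by 1.89 ± 0.08 and Map3k14, the kinase of that pathway, by 2.13 ± 0.08. Nfkbia, the inhibitor IkB-alpha, was at 1037, 1012, 1098 and 1089 CPM in mature and 291, 293, 307 and 257 CPM in immature libraries. Birc2, an E3 ligase of the pathway, rose by 2.61 ± 0.09. The stages of these genes did not overlap. Nfkb1, the canonical p105 subunit, was the 1 that fell, from 130 to 89.2 CPM on average (log2 fold change -0.54 ± 0.07).

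The sequence before the start of Nfkbia is shown as an example of a rising gene whose upstream DNA holds a written NF-kB match. It is the 250 bases of chr12:55492648-55492897 on the minus strand (RefSeq, GRCm38.p6), 5′ to 3′, with the match in capitals, which begins at position -29 relative to the start site.
Nfkbia: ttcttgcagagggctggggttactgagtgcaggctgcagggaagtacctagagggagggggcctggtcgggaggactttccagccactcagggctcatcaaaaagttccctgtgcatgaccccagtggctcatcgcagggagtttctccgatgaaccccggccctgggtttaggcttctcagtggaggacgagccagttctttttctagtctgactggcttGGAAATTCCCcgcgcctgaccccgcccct
The letters searched were GGGA, any base, then TTTCC, on both strands in windows of 300 bases, from 250 before to 50 after the start. Of all 32851 RefSeq windows 0.411% held them. Of the 152 named genes 118 had a window. Among the named genes searched 3 held a match, namely Nfkbia and B2m, which rose, and Tlr3, which fell. How many of the 118 were searched was not recorded, so no motif count among named genes is a share of 118. A match describes letters and not binding. Windows were found for 78% of the genes that rose and 76.5% of those that fell by over 2-fold, under the minimum of 80%, so shares within these sets are void.

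Of 14 tested cytokine genes 10 were higher and 2 lower (median 1.08), and of 14 chemokine genes 7 were higher and 0 lower (median 0.41). Il12b, the p40 chain of IL-12 and IL-23, was at 1913, 1676, 2052 and 1858 CPM in mature and 66.9, 50.7, 118 and 40.6 CPM in immature libraries (log2 fold change 4.77 ± 0.37). Its partner genes Il12a and Il23a had too few counts to be tested. Il15, a survival factor for memory CD8 T cells and NK cells, was at 54.5, 56.9, 73.1 and 77.7 CPM in mature and 8.66, 8.32, 8.89 and 7.91 CPM in immature libraries. Its presenting receptor Il15ra rose by 3.83 ± 0.15. Il27 had 402 mature and 11 immature counts (ratio 45.5, 95% exact interval 25.1 to 91.8), and Ebi3, the other chain of IL-27, rose by 0.60 ± 0.07. Il18 fell by 0.75 and Il1a by 1.26 on the log2 scale. The count of 2 lower cytokines was 1 without immature replicate 1, immature replicate 4, mature replicate 2, mature replicate 4 or replicate 4 of both stages, each of which ended the call of Il1a.

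Ccl5, a chemokine that draws T cells, was at 575, 639, 747 and 654 CPM in mature and 7.88, 13.7, 11 and 6.30 CPM in immature libraries (log2 fold change 6.07 ± 0.23). Ccl22, a ligand of CCR4 on regulatory T cells, was at 790, 656, 833 and 785 CPM in mature and 20.1, 13.4, 33.6 and 12.7 CPM in immature libraries (5.26 ± 0.35). Cxcl16, a ligand of CXCR6, rose from 189 ± 19.1 to 1191 ± 99.5 CPM. Ccl19, itself a ligand of CCR7, was lower in level, at 6.82, 16.6, 16.1 and 8.80 CPM in mature and 0.107 to 0.396 CPM in immature libraries. Cxcl9, a ligand of CXCR3, was at 277 ± 16.5 CPM in mature cells against 245 ± 35.6 CPM in immature cells and was not called (adjusted p = 0.112), but was without immature replicate 3 (0.27, adjusted p = 0.0168).

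The receptors for such cues went both ways, as did all genes tested, with 29.7% higher and 30.1% lower. Of 17 chemotactic and egress receptors 7 were higher and 6 lower (median 0.22, and -0.01 with library sizes only). Beside Ccr7, rises were seen for Cxcr5, S1pr1, S1pr3, Ccr6, Cxcr4 and Ccrl2, that of Cxcr4 (0.37) being lost with upper quartile factors (0.23) and library sizes only (0.13). S1pr1, the receptor for egress toward sphingosine 1-phosphate, rose from 6.83 to 34.6 CPM on average, and Cxcr5, the receptor for B cell follicles, from 4.12 to 28.5 CPM. Cxcr5 was at 27.4, 21.65, 47.7 and 17.3 CPM in mature replicates 1 to 4, the same order as the summed B cell markers given below. In immature replicates the order differed, with replicate 4 lowest in both. The part of B cells in the rise of Cxcr5 was not tested. Ccrl2, which binds chemerin, rose by 2.54 ± 0.09. Falls included those of Ccr2, Cxcr3, Ccr9, P2ry14 and Xcr1. Cxcr3 fell from 59.6, 72.1, 69.4 and 73.2 CPM in immature to 29.4, 35.2, 29.3 and 32.4 CPM in mature libraries. Xcr1, the receptor by which cDC1s meet XCL1 from T cells and NK cells, fell from 798 ± 13.7 to 575 ± 30.9 CPM.

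Of 33 actin, motility and cell shape genes 21 were higher and 6 lower (median 0.35). Marcksl1, which links actin to membranes, was at 1409, 1526, 1831 and 1669 CPM in mature and 109, 92.1, 122 and 91.7 CPM in immature libraries. Swap70, a regulator of Rac and actin, rose from 117 ± 18.5 to 1275 ± 164 CPM, and Arhgap31, an inhibitor of Cdc42 and Rac1, by 3.10 ± 0.11 on the log2 scale. Myo1g, a membrane-bound myosin gene, rose by 2.06 ± 0.08. The 6 lower genes included Coro1a, an actin regulator of leukocytes (-0.63 ± 0.06), Tmsb10 and Was. Of 25 adhesion molecules and integrins 10 were higher and 6 lower (median 0.12, -0.01 with upper quartile factors and -0.12 with library sizes only). Icam1, the ligand of LFA-1, rose from 324 to 964 CPM on average, and Itgb1, the beta 1 integrin chain, from 473 to 1001 CPM. Itgb7, the beta 7 integrin chain, fell from 349, 368, 346 and 293 CPM in immature to 123, 150, 125 and 114 CPM in mature libraries (log2 fold change -1.40 ± 0.09).

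Of 18 tested LXR targets and receptors 10 were higher and 3 lower (median 0.64). By pair of replicates the median was 0.52, 0.62, 0.59 and 0.14, lowest in replicate 4. Abcg1, the cholesterol efflux transporter gene, was at 323, 354, 432 and 425 CPM in mature and 78.0, 82.0, 77.8 and 82.2 CPM in immature libraries (log2 fold change 2.26 ± 0.09, adjusted p = 9.02e-11). Apoe, the lipid carrier of efflux, was at 346 ± 12.1 CPM in mature cells against 114 ± 19.9 CPM in immature cells, and Arl4c, a small GTPase gene, rose by 2.27 ± 0.09. Abca1, the other main efflux transporter, was at 8.05, 5.93, 7.18 and 4.85 CPM in mature and 4.89, 1.27, 1.02 and 5.08 CPM in immature libraries. The stages of Abca1 overlapped through immature replicates 1 and 4, and it was not called (adjusted p = 0.0906), but was without immature replicate 4 (log2 fold change 1.43, adjusted p = 0.0399). Of the receptors, Nr1h2 (LXR-beta) was at 149 ± 6.65 CPM in mature cells against 124 ± 7.98 CPM in immature cells (log2 fold change 0.26 ± 0.06), a call that was lost with upper quartile factors (0.13) and library sizes only (0.02). Nr1h3 (LXR-alpha) was called higher at a far lower level, 6.59, 7.70, 5.95 and 4.85 CPM against 3.21, 2.08, 2.44 and 5.08 CPM, with overlap through replicate 4. The LXR targets of fatty acid synthesis went otherwise. Fasn, the fatty acid synthase gene, fell from 351 to 205 CPM on average (-0.78 ± 0.06) and Scd2 by 0.64 on the log2 scale, while Scd1 rose by 1.46. Srebf1, the regulator of that pathway, was at 63.0 ± 4.89 CPM in mature cells against 69.5 ± 2.26 CPM in immature cells and was not called, but was without mature replicate 3 (-0.18, adjusted p = 0.0466).

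In the cholesterol synthesis and uptake list 18 of 28 tested members were higher and 3 lower (median 0.67). Idi1, which interconverts isoprenoid units, was at 191, 234, 305 and 237 CPM in mature and 73.4, 58.2, 60.9 and 40.2 CPM in immature libraries. Mature replicate 3 was the highest library of Idi1 and the stages did not overlap. Fdft1 (squalene synthase) and Mvd rose by 1.52 ± 0.12 and 1.34 ± 0.11, and Npc2, a lysosomal cholesterol carrier gene, by 0.71 ± 0.06. The steps after lanosterol were divided. Sc5d and Msmo1 rose by 1.26 and 0.97 on the log2 scale, Ebp and Nsdhl fell by 0.35 and 0.34, and Dhcr7 was at 11.9 ± 3.06 CPM in mature cells against 16.7 ± 5.68 CPM in immature cells. Dhcr7 was lower in mature cells in all 4 pairs but was not called without the pairing (adjusted p = 0.148), whereas with the replicate number as a block it was (log2 fold change -0.46, adjusted p = 0.00148), as it was without immature replicate 1 (-0.63, adjusted p = 0.0415). By pair, the list's median was 0.33 in replicate 1 and 0.70 to 0.79 in replicates 2 to 4.

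Of 27 cDC1 identity genes 20 were lower and 4 higher (median -0.51). Clec9a, the receptor for dead cells, fell from 203 ± 9.74 to 165 ± 7.12 CPM, a log2 change of -0.30 ± 0.06 without overlap. Larger falls were those of Sept3, a septin gene (-1.14 ± 0.07), and Tlr3, the receptor for double-stranded RNA, which went from 236, 230, 254 and 248 CPM in immature to 96.8, 132, 115 and 110 CPM in mature libraries. The 4 that were higher were Ly75, Id2, Cd8a and Batf3. Ly75, the uptake receptor DEC-205, was at 527, 490, 604 and 584 CPM in mature and 120, 122, 131 and 97.0 CPM in immature libraries (log2 fold change 2.23 ± 0.10). Id2, a repressor of E proteins in cDC1 development, rose by 1.13 ± 0.06. Batf3, the cDC1 factor gene, had a log2 change of 0.26 with overlap between the stages, and was not called with upper quartile factors (0.12, adjusted p = 0.195) or library sizes only (0.01, 0.877). Flt3, the growth factor receptor gene of dendritic cells, was at 487 to 532 CPM in mature and 449 to 519 CPM in immature libraries. Its log2 change was 0.02 with TMM and -0.22 with library sizes only (adjusted p = 0.0076).

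Of 34 lineage transcription factors 20 were higher and 5 lower (median 0.35). Etv3 was at 903, 803, 1003 and 955 CPM in mature and 188, 148, 188 and 144 CPM in immature libraries (log2 fold change 2.46 ± 0.10). Stat5a, a factor downstream of cytokine receptors, rose by 1.84 ± 0.08, and Irf4 from 11.6 to 37.1 CPM on average. Mycl fell from 742 to 428 CPM on average (-0.79 ± 0.06). Of 27 growth factor and cytokine receptors 16 were higher and 4 lower (median 0.43). Il21r was at 377, 359, 521 and 445 CPM in mature and 12.6, 9.82, 15.4 and 10.5 CPM in immature libraries (5.14 ± 0.17). Il2rg, the chain that the receptors for IL-2, IL-15 and IL-21 share, rose by 2.42 ± 0.09, and Tnfrsf1b (TNF receptor 2) by 2.80 ± 0.11. Ifngr1, the interferon-gamma receptor chain, fell from 904 to 585 CPM on average (-0.63 ± 0.06).

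Of 26 interferon-stimulated genes 17 were higher and 2 lower (median 1.01). Gbp2, a guanylate-binding protein gene, was at 76.1, 86.7, 96.4 and 102 CPM in mature and 6.53, 8.49, 9.35 and 5.82 CPM in immature libraries (log2 fold change 3.58 ± 0.14). Oasl1 and Usp18 rose by 3.52 ± 0.17 and 1.96 ± 0.11. Irf1 was at 503 ± 105 CPM in mature cells against 67.4 ± 21.7 CPM in immature cells. Irf7 and Irf9, the factors of the type I interferon response, fell by 0.44 and 0.37 on the log2 scale. Ifnb1 itself was close to 0, with a mean of 0.0173 CPM in mature and 0 in immature cells.

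Of 17 MHC class I presentation genes 12 were higher and 2 lower (median 0.58), the count of 2 being 1 without immature replicate 2 or without replicate 4 of both stages. Nlrc5, the transactivator of class I genes, was at 330, 277, 352 and 357 CPM in mature and 56.6, 65.3, 62.3 and 59.6 CPM in immature libraries (log2 fold change 2.43 ± 0.08). B2m, the class I light chain, was at 4210, 4901, 5111 and 4564 CPM in mature and 1658, 1971, 1980 and 1855 CPM in immature libraries (1.33 ± 0.08). H2-K1, a class I heavy chain gene that shares sequence with its paralogs, rose by 1.56 ± 0.07. The stages of these genes did not overlap, and Pdia3, a chaperone of class I loading, fell by 0.38 on the log2 scale. Of 13 MHC class II genes 6 were higher and 5 lower (median -0.15). The count of 6 was 2 with upper quartile factors or library sizes only. Ciita, the class II transactivator, fell from 715 ± 36.0 to 473 ± 30.8 CPM and March1, the ligase that removes class II from the surface, from 211 to 127 CPM on average. H2-Ab1, a class II chain, was at 15613 ± 1036 CPM in mature cells against 17336 ± 912 CPM in immature cells and was not called (adjusted p = 0.0611), but was with the replicate number as a block (-0.15, adjusted p = 0.0218), without mature replicate 2 (-0.19, 0.0264) or without immature replicate 1 (-0.18, 0.0494). Ifi30, the lysosomal thiol reductase of antigen processing, rose by 1.68 ± 0.08.

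The 250 bases before the starts of Gbp2 (chr3:142620413-142620662, plus strand) and B2m (chr2:122147437-122147686, plus strand) are printed because these rising genes hold written interferon and NF-kB matches there (RefSeq, GRCm38.p6, 5′ to 3′). Capitals in Gbp2 mark an interferon response element at position -59. Those in B2m mark an interferon response element at -139 and an NF-kB match at -126.
Gbp2: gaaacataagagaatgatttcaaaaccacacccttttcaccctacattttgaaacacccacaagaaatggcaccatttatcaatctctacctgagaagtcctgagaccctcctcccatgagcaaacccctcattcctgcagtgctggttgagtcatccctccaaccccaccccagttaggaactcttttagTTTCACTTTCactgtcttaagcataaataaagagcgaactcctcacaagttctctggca
B2m: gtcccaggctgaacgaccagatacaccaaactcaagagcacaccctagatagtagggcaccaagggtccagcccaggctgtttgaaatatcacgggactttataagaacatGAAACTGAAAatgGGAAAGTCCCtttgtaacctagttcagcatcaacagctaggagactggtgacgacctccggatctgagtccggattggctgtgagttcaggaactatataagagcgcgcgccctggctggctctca
The interferon response element was written as GAAA, any 2 bases, then GAAA, searched on both strands, and 3.44% of all windows held it. Among the named genes searched 10 held it, and Ebp and Ndufa9, both lower in mature cells, were among them.

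Of 21 pattern recognition receptors and sensors 7 were higher and 7 lower (median -0.10). Tlr1 and Clec7a (Dectin-1) rose by 2.08 ± 0.14 and 2.66 ± 0.15, while Tlr3, Tlr4, Tlr11 and Tlr12 fell by 1.09, 1.16, 0.61 and 0.72 on the log2 scale. Of 21 tested genes for antigen uptake and apoptotic cell receptors 5 were higher and 5 lower (median 0.19, -0.06 with library sizes only). The count of 5 higher was 8 without immature replicate 4. Scarb1, a scavenger receptor gene, fell from 216 to 134 CPM on average (-0.70 ± 0.05). Of 29 lysosomal genes 20 were higher and 6 lower (median 0.50), and the 6 were 3 without immature replicate 1. Lamp1, a lysosomal membrane protein gene, was at 1007, 975.4, 1219 and 1070 CPM in mature and 197, 155, 182 and 160 CPM in immature libraries. Ctsz and Gaa, which encode lysosomal hydrolases, rose by 1.14 ± 0.07 and 1.45 ± 0.09.

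Cell cycle genes fell together. Of 32 members 31 were lower and 0 higher, with a median of -0.92 and medians by pair of -0.98, -0.83, -1.02 and -0.79. All 32 were lower in mature cells in each of the 4 pairs. Of all 11567 genes tested, 3371 were called lower and were lower in all 4 pairs. Genes not called were not counted this way. Mcm6, a subunit of the replicative helicase, was at 305, 292, 281 and 312 CPM in immature and 145, 151, 133 and 164 CPM in mature libraries (log2 fold change -1.01 ± 0.07). Mcm3 and Mcm5 fell by 0.97 and 1.01. Mki67, the gene of the Ki-67 antigen, was the member not called. It was at 49.7, 63.1, 41.6 and 95.2 CPM in immature and 48.4, 35.0, 22.4 and 49.8 CPM in mature libraries, lower in every pair but with overlap, and was called with the replicate number as a block (log2 fold change -0.68, adjusted p = 0.0127). Its immature replicate 4 was the highest library. A smaller share of dividing cells and less of these RNAs per cell cannot be told apart in bulk.

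The 250 bases before the start of Mcm6 (chr1:128359706-128359955, minus strand, RefSeq, GRCm38.p6, 5′ to 3′) are printed because this falling gene holds an E2F match at 2 places, -110 and -47, in capitals.
Mcm6: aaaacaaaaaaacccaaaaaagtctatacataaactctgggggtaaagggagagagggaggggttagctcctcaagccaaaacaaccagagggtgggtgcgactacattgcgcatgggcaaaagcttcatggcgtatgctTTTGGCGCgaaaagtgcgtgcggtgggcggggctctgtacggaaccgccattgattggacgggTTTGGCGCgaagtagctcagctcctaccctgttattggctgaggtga
The letters TTTGGCGC were searched on both strands, and 0.514% of all windows held them. Among the named genes searched 4 did, Mcm3, Mcm5 and Mcm6, which fell, and Cox5a, which rose. The other motifs searched, by the same rule, were TCACNCCAC (sterol regulatory element), GAGGAAGT (PU.1) and TGACGTGG (the core of the XBP1 element), present in 5, 7 and 1 of the named genes searched.

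Of 31 XBP1 targets and ER folding genes 19 were lower and 6 higher (median -0.37), none by over 2-fold. Xbp1 itself was at 119, 131, 122 and 113 CPM in immature and 84.3, 90.2, 81.4 and 69.0 CPM in mature libraries (log2 fold change -0.58 ± 0.08). Ern1, which encodes IRE1, the kinase and RNase that splices Xbp1 mRNA, fell by 0.37 ± 0.08. Both genes lay in separate ranges in the stages. Pdia6 and Sdf2l1, folding factors of the endoplasmic reticulum, fell by 0.76 ± 0.05 and 0.81 ± 0.07, and Hspa5 (BiP) from 1784 ± 155 to 1320 ± 44.3 CPM. The 6 higher were Sel1l, Herpud1, Ddit3, Dnajb9, Edem1 and Atf4. Atf4 (0.16) was not called with upper quartile factors (0.03), with library sizes only (-0.08), or without immature replicate 1 or 2 (0.14 each), and Edem1 (0.36) not with library sizes only (0.12). Herpud1 and Sel1l, components of ER-associated degradation, rose by 0.79 ± 0.08 and 0.81 ± 0.07. Gene counts do not tell spliced from unspliced Xbp1 mRNA.

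Respiratory chain genes were lower in 19 of 25 cases and higher in 1 (median -0.26), none by over 2-fold. Ndufa9 of complex I fell by 0.49 ± 0.06, and Cox5a of complex IV was the 1 that rose (0.39 ± 0.06). Of 20 tested glycolysis genes 4 were higher and 8 lower (median -0.13), the 8 being 14 with library sizes only. Pfkfb3, which makes the activator of phosphofructokinase, was at 884, 868, 1182 and 1058 CPM in mature and 67.9, 66.1, 78.5 and 66.0 CPM in immature libraries (log2 fold change 3.84 ± 0.11). Ldha, the lactate dehydrogenase gene, fell from 1054, 1000, 1005 and 1024 to 614, 622, 568 and 565 CPM. Pfkfb3 and Ldha thus moved in opposite directions without overlap, and the reads of Eno1 may be split with its copies, as its level was 2.24 CPM in immature cells.

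Of 27 tested BCL2 family and cell death genes 17 were higher and 6 lower (median 0.72), and members that block and members that promote apoptosis were among the higher ones. Bcl2l1 (BCL-XL), which blocks apoptosis, was at 134, 121, 144 and 147 CPM in mature and 30.7, 22.6, 27.6 and 26.4 CPM in immature libraries. Bcl2l11 (BIM), which promotes it, rose from 50.5 ± 8.07 to 298 ± 34.0 CPM, and Cflar, an inhibitor of caspase-8, from 34.8 ± 5.38 to 314 ± 44.7 CPM. Bcl2a1b rose by 1.66 ± 0.08, though reads of the Bcl2a1 copies may be split among them. Bcl2 and Xiap each fell by 0.54 on the log2 scale. Of 30 DUSP phosphatases and MAP kinase genes 13 were higher and 7 lower (median 0.24, -0.00 with library sizes only). Dusp5, a nuclear phosphatase of ERK, rose from 211 to 1149 CPM on average and Map3k8 (TPL2) by 1.77 ± 0.08. Dusp14 rose by 4.04 ± 0.20, and Map2k6 fell by 0.82 on the log2 scale.

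Markers of other cell types moved with the stage, and their part in the results above was not tested. B cell markers were higher in 11 of 12 cases and lower in 0 (median 1.92), with sums of 598, 430, 725 and 347 CPM in mature and 200, 151, 158 and 139 CPM in immature replicates 1 to 4. Ms4a1, which encodes CD20, was at 151, 128, 190 and 134 CPM in mature and 59.4, 41.1, 45.1 and 40.7 CPM in immature libraries. Cd79a, a chain of the B cell receptor, was at 147, 96.8, 169 and 64.1 CPM against 29.9, 22.6, 21.8 and 24.0 CPM. T cell markers were higher in 5 of 8 cases (sums 55.1 to 83.5 and 33.8 to 48.9 CPM), but in 3 without mature replicate 1 or 2 or immature replicate 3 or 4. Of 10 tested cDC2 markers 7 were higher and 0 lower (median 1.12), with sums of 458 to 522 CPM against 273 to 311 CPM. Esam, an adhesion molecule of splenic cDC2s, rose by 2.75 ± 0.12, and Clec12a was at 151 to 160 CPM in mature and 144 to 164 CPM in immature libraries.

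Macrophage markers were higher in 2 of 14 cases and lower in 1 (median 0.49), with sums of 1061, 902, 940 and 991 CPM in mature and 643, 513, 419 and 999 CPM in immature libraries. Immature replicate 4 was thus inside the mature range. Without it 6 were higher, and without replicate 4 of both stages 5. Vcam1, an adhesion molecule of red pulp macrophages, was at 301, 304, 342 and 391 CPM in mature and 86.6, 61.3, 47.9 and 158 CPM in immature libraries. Spic, the factor of red pulp macrophages, was at 41.5, 27.5, 41.6 and 36.4 CPM against 6.24, 4.22, 3.57 and 15.2 CPM. In contrast C1qa, a complement gene of macrophages, overlapped between the stages (adjusted p = 0.434). Nr1h3, an LXR gene in the list above, was also highest in immature replicate 4 among the immature libraries, as were Apoe and Abca1.

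Of 7 tested NK cell markers 0 were higher and 1 lower (median 0.11), of 9 monocyte markers 1 and 2 (0.09), of 6 neutrophil markers 1 and 0 (-0.46), and of 5 erythroid and platelet markers 0 and 0 (-0.21). The 1 higher monocyte marker was lost without any 1 of immature replicates 1, 3 or 4 or mature replicates 1, 2 or 3. Of 5 tested plasma cell markers 3 were higher and 1 lower (1.09), of 9 plasmacytoid dendritic cell markers 3 and 1 (-0.11), and of 5 stromal and endothelial markers 1 and 1 (0.72). Stromal markers higher were 3 without immature replicate 1, and plasmacytoid markers lower 2 without mature replicate 3. NK cell markers higher were 1 without immature replicate 2, and erythroid and platelet markers higher 1 without immature replicate 2 or mature replicate 1. Klrk1, which encodes NKG2D, was the 1 lower NK cell marker, at 121, 128, 124 and 105 CPM in immature and 62.5, 59.1, 52.7 and 58.7 CPM in mature libraries. Jchain, of plasma cells, was at 71.1 to 212 CPM in mature and 73.4 to 206 CPM in immature libraries, and the myeloid enzyme gene Mpo at 0.068 to 23.3 and 1.47 to 20.2 CPM. The hemoglobin genes Hba-a1 and Hbb-bt were at 0 in all 8 libraries, where 3 counts would be at most 0.23 CPM. Hbb-bs, also a listed hemoglobin gene, was not at 0 throughout but had too few counts to be tested. The summed erythroid and platelet markers were at 6.91 to 17.9 CPM in mature and 9.85 to 29.2 CPM in immature libraries. Alas2, an enzyme gene of heme synthesis in red cell precursors, was not called (log2 fold change -0.89 ± 0.53), but was with the replicate number as a block (-0.86, adjusted p = 0.0444).

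**Figure D5:**
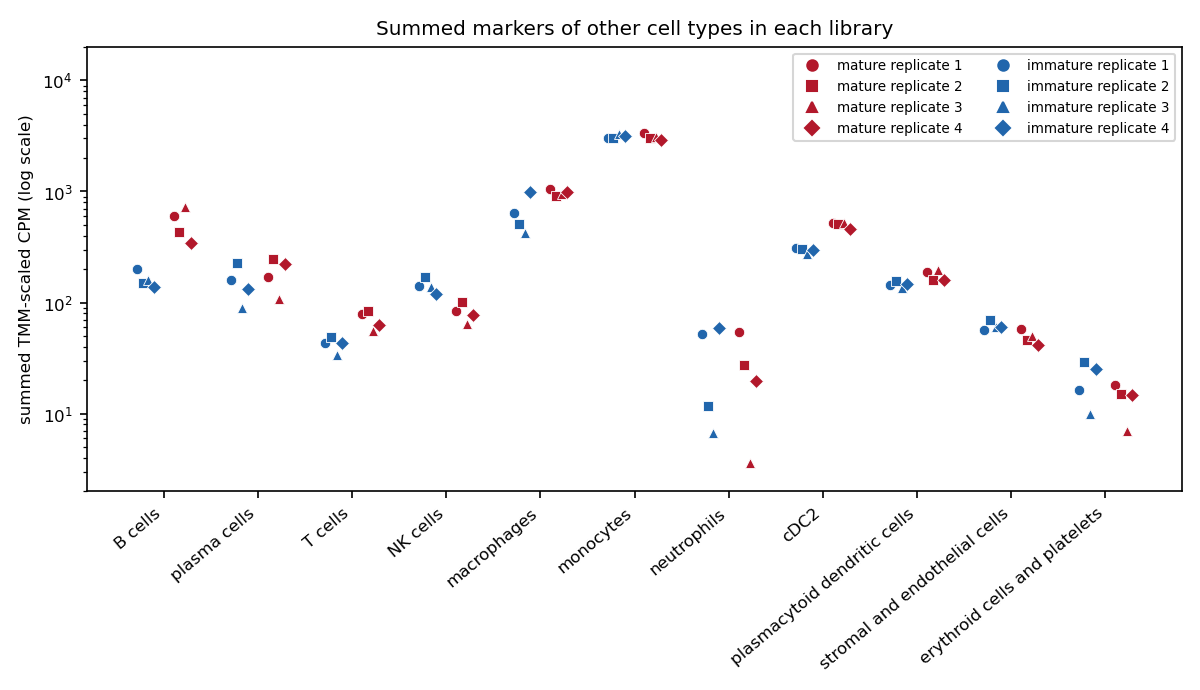
Summed TMM-scaled CPM (y, log axis) of the markers of each of 11 other cell types (x) in each library, with mature libraries in red, immature ones in blue and the symbol shape giving the replicate number. B cell sums are 347 to 725 CPM in mature and 139 to 200 CPM in immature libraries, while the macrophage sum of immature replicate 4 (999 CPM) lies among the mature libraries.

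The maturation change was compared with that in mice floxed for Xbp1 and Ire1 through an interaction term over all 16 libraries and 11978 genes. The number of genes called was 0 (0%) by edgeR's quasi-likelihood test and 0 by DESeq2, while 329 genes (2.75%) and 406 genes had an unadjusted p under 0.05. The smallest p-values included those of Nudcd1, Wipf2, A630089N07Rik and Morn4, each with an adjusted p of 1. Wipf2, an actin regulator gene, was at 13.8 ± 0.61 CPM in mature Xbp1fl cells against 5.85 ± 0.866 CPM in immature cells, and in the other genotype at 7.8 ± 0.8 and 5.47 ± 0.748 CPM. Its interaction on the log2 scale was 0.73 ± 0.19 (SE), and for Nudcd1 it was -0.48 ± 0.12. For Fscn1 it was 0.02 ± 0.47, which leaves differences of the size of that error undetectable. No gene is therefore called particular to the Xbp1fl mice.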

How the data were processed

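RNA from sorted splenic cDC1s was measured by bulk RNA sequencing in 8 Xbp1fl libraries, 4 per stage. The authors deposited a table of raw counts for 24421 gene symbols and a table of log2 values for 11843 genes. Per the submitters' processing notes, the tools were TopHat2 2.1.0 and SAMtools 0.1.19, FastQC 0.11.4 and Trimmomatic 0.35, and limma 3.42.2, with build mm10. The counter, the annotation and the strand setting are not given in the sources used here, so overlapping and antisense genes may share reads. The deposited log2 values differed from log2 CPM by a fixed offset, with a residual SD of at most 0.0243, and served only as an alternative.

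Mature and immature libraries were compared on the deposited counts with edgeR 4.0.16 (R 4.3.3), using filterByExpr, TMM factors and the robust quasi-likelihood test, with Benjamini-Hochberg adjustment over 11567 genes and a threshold of 0.05. The SE of a log2 change was taken as its size over the root of the F statistic. Adjusted p-values in the text are from this fit unless another setting is named. The interaction with genotype was fitted over all 16 libraries. Counting intervals are exact at 95% and cover counting error only. Same-numbered libraries of the 2 stages deviated together, with correlations of 0.214 to 0.325 over 11482 genes in all 4 pairs against -0.215 to 0.049 for other pairs, so the numbers were taken to pair the libraries; the labels do not state the pairing. The fit without this pairing is the one reported.

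Members and gene lists were chosen with earlier results of these data known. Named genes were those called, without overlap and at 5 CPM or more in the higher stage, with the 10 largest rises from at least 1 CPM, the 5 largest from below it, the 10 largest falls, and the 5 largest gains and losses in CPM. Added to these were the 3 smallest p-values per function list and 1 in the minority direction, the most abundant and the most significant gene per list of other cell types, the 5 smallest interaction p-values, and Ccr7, Xcr1, Clec9a, Cd8a, Irf8, Batf3, Xbp1, Ern1, Abcg1, Nr1h3 and Flt3. Other list members named in the text were chosen after their values were seen, and some genes that meet the rule are not reported here. Positions are GENCODE M21 (GRCm38, the mm10 build) and were found for 24002 of 24421 symbols. Alternatives were DESeq2 1.42.0, limma 3.58.1, other scalings and filters, and leaving out each library. The main edgeR fit alone was tested on simulated counts. These held equal numbers of rises and falls, unlike the changes over 2-fold in the data. The interaction, the block, the other alternatives and the motif search were not tested in this way.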

Additional observations from a re-analysis of the deposited data

Results flagged for a closer look

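In 304 groups of 4 libraries, over 152 named genes and both stages, 20 libraries lay apart from the other libraries of their group by Dixon's criterion. Chance flags about 1 in 20 groups. Of the 20, 13 were immature replicate 3, in each case as the highest immature library of a gene that rose with maturation. Among the largest rises it was at 24.1 CPM for Fscn1 (next 10.6), 2.38 for Tnfrsf4 (0.751), 6.91 for Asprv1 (1.16), 3.17 for Adcy6 (0.751), 5.61 for Cd63 (2.42), 13.4 for Cacnb3 (3.26) and 4.08 for Socs2 (1.33). For Cd40 it was at 58.7 CPM (48.1), for Fas at 6.46 (4.59), for Ccrl2 at 30.7 (26.1) and for Pfkfb3 at 78.5 (67.9).

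Near the detection limit, immature replicate 3 held the sole immature counts of Scube3 (0.0566 CPM) and Gal3st2 (0.113 CPM), and immature replicate 1 those of Plat (0.0563 CPM) and Foxh1 (0.0563 CPM). These rest on 1 or 2 counts.

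Mature replicate 1 was lowest for Rn45s at 10355 CPM (next 11630) and for Cd8a at 731 CPM (771), and highest for Csf3r, a neutrophil marker, at 6.67 CPM (3.33). Mature replicate 2 was lowest for Ebp at 31.6 CPM (35). Immature replicate 4 was lowest for Flt3 at 449 CPM (508).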

How the results depend on the processing

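The scaling changed the counts most. Genes lower over 2-fold numbered 251 with TMM, 475 with upper quartile factors and 736 with library sizes only, and genes lower numbered 5544 with library sizes only against 3479. Nr4a1 and Flt3 turned to -0.15 and -0.22 (log2) with library sizes only. The shared calls of every setting had 0 opposite signs. With the replicate number as a block, edgeR called 7254 genes, 3600 higher and 3654 lower, against 6915. Genes named in the text that were gained included Dhcr7, Cd86, H2-Ab1, Mki67, Alas2, Ddx3y, Nnt, Prg2 and Uty. Leaving out 1 library at a time gave 3220 to 3405 genes higher and 3228 to 3422 lower. Over all settings, including those chosen after seeing the data (without replicate 4 of both stages), the interaction with genotype had 0 genes called by edgeR or DESeq2, with 249 to 567 at an unadjusted p under 0.05. Leaving out 1 library moved the fold of 10 named genes by over 1.5 times: without immature replicate 3, Scube3 went from 815 to 2.26e+03, Gal3st2 from 416 to 1.88e+03 and Cd70 from 51.6 to 86.2, beside the 5 given above. Without immature replicate 1, Foxh1 went from 388 to 1.07e+03 and Plat from 399 to 1.1e+03. Cd74, Batf3, Nr1h2, Cxcr4 and Atf4 were not called with upper quartile factors or library sizes only, whereas Clec12a, Cd86, H2-Ab1 and Srebf1 then were. The cause of these changes was not tested. Genes with few immature counts limit the precision of the largest folds.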

Other observations

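Some genes followed the replicate number in both stages. With stage as a term in the same edgeR fit, a test added after the data were seen, 188 of 11567 genes (1.63%) differed between replicate numbers at an adjusted p under 0.05. The Y-linked genes Ddx3y, Eif2s3y, Kdm5d and Uty had the smallest p-values. Nnt, the mitochondrial transhydrogenase gene, was at 44.9, 19.2, 18.3 and 39.0 CPM in mature and 66.3, 27.6, 29.4 and 52.2 CPM in immature replicates 1 to 4, high in replicates 1 and 4 of both stages. Fn3krp, a protein repair kinase gene, was at 3.91, 5.35, 3.97 and 0.416 CPM and at 6.13, 7.33, 5.27 and 0.214 CPM. Prg2, an eosinophil granule protein gene, was highest in replicate 4 of both stages, at 18.4 and 5.29 CPM.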
